A study of Mus musculus with 8 samples.

Results

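Hearts that express placental growth factor (PlGF) were compared with hearts labelled as expressing PlGF together with regulator of G protein signaling 4 (RGS4). The comparison rests on 5 of the 8 arrays of the series, chosen by their labels alone: 2 arrays of PlGF hearts and 3 arrays labelled PlGF/RGS4. The 3 control arrays gave a reference level and took part in the estimate of the spread. Each array holds total RNA from the left ventricle of 1 heart, and the labels call the arrays of a group biological replicates. All mice were of the strain C57/Bl6 and 11 weeks old. The transgenes are of the TET-OFF kind: a transactivator (tTA) made under the αMHC promoter, which is active in cardiac muscle cells, turns them on when doxycycline is absent. Doxycycline in the diet kept them silent until 5 weeks of age, and normal chow then switched them on for 6 weeks. The PlGF mice carried the PlGF responder and the PlGF/RGS4 mice both responders, and the controls were littermates with only 1 of the transgenes. The study used the second group as hearts in which vessels grow but hypertrophy is held back. By the labels alone, the comparison is thus of PlGF hearts with and without the RGS4 transgene, a reading that the transgene values below limit.

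PlGF is a growth factor of the VEGF family. It binds the receptor Flt1 on endothelial cells and on monocytes, and it can both support vessel growth and attract monocytes. RGS4 speeds up the return of active Gq and Gi proteins to their resting state and so shortens signalling by receptors such as those for angiotensin and endothelin. The results also turn on the interferon pathway. Interferon gamma, secreted by T cells and natural killer (NK) cells, acts in part through the transcription factor IRF1 and induces chemokines for further T cells, cell-autonomous GTPases, the immunoproteasome and the molecules that present antigen. Promoters that answer to type I interferons often hold a DNA element called ISRE, and those that answer to interferon gamma an element called GAS.

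The transgene itself was read first. Pgf, the gene of PlGF, had an intensity of 4136 and 917 in PlGF, 300.0, 229 and 211 in PlGF/RGS4 and 211, 349 and 387 in control. The PlGF arrays lay above all others, and the arrays labelled PlGF/RGS4 lay about as low as the controls, which goes against that label. The study itself reported raised capillary density in its PlGF/RGS4 mice, measured in sections and outside these arrays. The log2 difference between PlGF and PlGF/RGS4 was 2.99 ± 0.58 (SE; limma adjusted p = 0.0622), 1.91 without PlGF replicate 1 and 4.08 without PlGF replicate 2. Rgs4 read 235 and 195 in PlGF, 234, 187 and 229 in PlGF/RGS4 and 209.5, 277 and 282 in control, so its arrays overlapped between all groups (log2 difference −0.01 ± 0.16, adjusted p = 0.981). Whether the probes of the array read the transgene's RNA is not stated in the sources used here. The hearts are therefore called those labelled PlGF/RGS4. Since the Pgf arrays of the groups did not overlap, an effect of RGS4 on other genes cannot be told apart from one of Pgf.

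The labelled tissue was checked by its markers. Of the 9 genes listed for ventricular myocardium, Actc1, Tnnt2, Tnni3, Myh6, Myl2 and Myl3 were among the brightest on every array. Irx4, Hand2 and Nppb were listed too and are not part of that statement. Log2 differences between PlGF and PlGF/RGS4 ran from −0.62 to 1.83 over the 9. Both PlGF arrays lay above all PlGF/RGS4 arrays for 1 (11.1%, against 12.6% of all genes) and below for 2 (22.2%, against 19.9%). The summed intensity of the 9 ran from 88200 to 91074 in PlGF, from 88043 to 89536 in PlGF/RGS4 and from 89258 to 90973 in control. PlGF replicate 1 stood apart over all genes, with a mean correlation of 0.974 with the arrays of the other groups against 0.991 to 0.993 for the other 7 arrays. It had 892 genes more than 2-fold from the control mean, PlGF replicate 2 had 178, and the arrays labelled PlGF/RGS4 had 11 to 59. The level of Xist, which silences an X chromosome, was 26.9 in the first PlGF heart, 50.8 in the second control, 36.1 in the second heart labelled PlGF/RGS4 and 2581 to 2959 in the rest, so each group held both levels. The labels give no sex. Over Xist and the other sex-linked genes measured, the median from the control mean was 2.27, 2.55 and 2.56 in the low-Xist arrays, in the same order. In the rest it ran from −1.35 to −0.77. The 2 PlGF hearts thus stood on opposite sides, and a difference between them cannot be told apart from one of sex. With the Xist level as a covariate the comparison called 270 genes higher and 13 lower. Of these, 204 and 8 were also called without the covariate.

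At a limma adjusted p under 0.05, PlGF exceeded PlGF/RGS4 in 220 of 19933 genes (1.1%) and lay below it in 17 (0.0853%). At an unadjusted p under 0.05 the counts were 1785 and 2109. Both PlGF arrays lay above all 3 PlGF/RGS4 arrays for 2510 genes (12.6%) and below them for 3970 (19.9%). The called genes were thus mostly higher in PlGF, whereas the genes with separate arrays were more often lower. Among the 220, 155 differed by at least 2-fold and the median was 2.65-fold; among the 17, none reached 2-fold. The calls draw on the spread within the control group as well. With only the 5 arrays in the limma fit 1 gene was higher and 0 lower (1292 and 1305 at an unadjusted p under 0.05). Leaving out any single control or PlGF/RGS4 array left 11 to 26 genes higher, the lowest count without PlGF/RGS4 replicate 3, and 0 or 1 lower. A two-sided exact permutation test of 2 arrays against 3 cannot give a p under 0.1, and every gene with separate arrays named below reached at best that value.

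For 219 of the 220 higher genes both PlGF hearts also lay above all controls, and for 196 the mean of the arrays labelled PlGF/RGS4 lay within 0.25 (log2) of the control mean. The shares of all genes that met these conditions were not counted, so neither count is read as particular to the called genes. PlGF replicate 1 lay farther from PlGF/RGS4 than PlGF replicate 2 in 210 of the 220. The same held for 14398 of all 19933 genes, so it is not particular to the called genes. The median log2 difference of the 220 was 1.78 in replicate 1 and 1.04 in replicate 2. Without PlGF replicate 1, when replicate 2 alone stands for PlGF, 262 genes were higher, and 169 of the 220 were among them. Without PlGF replicate 2 there were 2594. Genes that passed the test with each of the 8 arrays left out numbered 11. They were the chemokine genes Cxcl9 and Ccl5, the interferon-induced GTPase gene Iigp1, the checkpoint ligand gene Cd274, the granzyme gene Gzmb, the T cell gene Cd2, the immunoglobulin gene Igkv9-120, BC023105 and 3 predicted genes. Igkv9-120 was picked out after its values were seen.

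**Figure D1:**
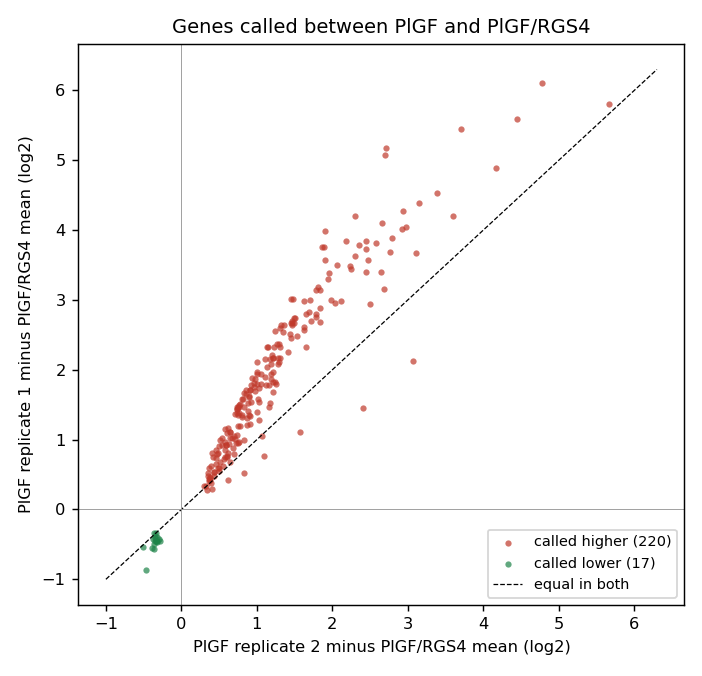
Log2 difference of PlGF replicate 2 (horizontal axis) and PlGF replicate 1 (vertical axis) from the mean of the 3 arrays labelled PlGF/RGS4, 1 point for each of the 237 genes called between the groups. Most of the 220 higher genes (red) lie above the dashed line of equal difference, 210 of them farther out in replicate 1. Replicate 1 lay farther out for 14398 of all 19933 genes. The 17 lower genes (green) lie close together near the line.

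BC023105, a gene known only by its clone name, had the largest difference of the 220. It read 5985 and 5432 in PlGF, 103, 97.1 and 118 in PlGF/RGS4 and 154, 202 and 119 in control, a log2 difference of 5.74 ± 0.20 (adjusted p = 0.000139). In contrast to most higher genes it was nearly equal in the 2 PlGF hearts, and no other array exceeded 202.

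The GTPases of the interferon response had the largest share of called genes of all lists. They attack the vacuoles of intracellular microbes, the immunity-related GTPases (Irg genes) and the guanylate-binding proteins (Gbp genes) together. Of 9 measured, 8 were higher, 0 lower and 1 did not pass, the arrays did not overlap for any of the 9, and the median log2 difference was 2.86 (2.24 and 3.40) against −0.03 over all genes. The values in parentheses after a list's median, here and for every later list, are that median without PlGF replicate 1 and without PlGF replicate 2. Counts of a list, here and below, stand beside these shares of all genes: 1.1% called higher and 0.0853% called lower. Both PlGF arrays lay above all PlGF/RGS4 arrays for 12.6% of all genes and below them for 19.9%. Unadjusted counts of a list stand beside 1785 higher and 2109 lower of all 19933 genes. Iigp1 read 3849.7 and 2618 in PlGF, 304, 352 and 259 in PlGF/RGS4 and 409, 504 and 317 in control. Both PlGF hearts were far above the rest, and the other 2 groups overlapped (log2 difference 3.39 ± 0.23, adjusted p = 0.00268). Irgm1, which restrains its relatives on the membranes of the cell, read 5988 and 2199, then 376, 351 and 318, then 417, 378 and 341 (3.38 ± 0.36, adjusted p = 0.0143). For Gbp8 the PlGF hearts read 802 and 297 and the PlGF/RGS4 hearts 58.9, 59.3 and 54.3, and for Gbp4 2984 and 1546 against 304, 333 and 221, with log2 differences of 3.07 ± 0.35 and 2.93 ± 0.33. Members of these families are alike in sequence, so a probe set may read more than 1 of them.

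Antiviral effectors formed a larger and less extreme group. Of 19 genes, 4 were higher, 0 lower and 15 did not pass, while the arrays of 17 did not overlap, with a median of 1.27 (0.75 and 1.79). By heart the median above control was 1.71 in PlGF replicate 1 and 0.76 in PlGF replicate 2. Ifit3, of a family that binds foreign RNA, read 2911 and 1541 in PlGF and 342, 410.5 and 373 in PlGF/RGS4 (2.498 ± 0.25, adjusted p = 0.0128). Ifit1 of the same family read 1286 and 612 against 224, 244 and 211 (1.97 ± 0.28). Rsad2, the gene of the antiviral enzyme viperin, read 1522 and 903 against 332, 433 and 412 (1.59 ± 0.21), and in this case the arrays labelled PlGF/RGS4 all lay below the controls, at 469, 498 and 491. Oasl2, of the oligoadenylate synthetase family, read 1605 and 749 against 384, 384 and 350.4 (1.55 ± 0.27, adjusted p = 0.0482).

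Upstream of these genes stand the interferons, their receptors and the transcription factors. Of 17 such genes 4 were higher and 0 lower, all 4 of them interferon regulatory factors, and the median was 0.51 (0.34 and 0.86). For 14 of the 17 (82.4%, against 12.6% of all genes) both PlGF arrays lay above all PlGF/RGS4 arrays. Irf1 read 2089 and 1051 in PlGF, 297, 329 and 334 in PlGF/RGS4 and 348, 351 and 286 in control (2.21 ± 0.26, adjusted p = 0.0155). Irf7, which amplifies type I interferon, read 1434 and 651 against 201, 220.4 and 186 (2.25 ± 0.28), and Irf8, a factor of monocytes and dendritic cells, 970.0 and 414 against 133, 160.2 and 156 (2.08 ± 0.30). Irf9, a factor of the type I response, had the smallest difference of the 4, 782 and 559.6 against 376, 411 and 367 (0.78 ± 0.13). Ifng itself, picked out after its values were seen, read 248 and 92.0 in PlGF, 49.6, 52.5 and 45.8 in PlGF/RGS4 and 48.6, 43.6 and 45.9 in control. Its PlGF arrays lay above all others and the test over all genes was not passed (1.60 ± 0.34, adjusted p = 0.0848).

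The promoters of these genes were searched for the 2 elements in the windows that RefSeq gives for mouse build GRCm38.p6, from 250 bases before to 50 bases after each start. The ISRE core was taken as TTTCNNTTTC on either strand (GAAANNGAAA on the other), and the GAS core as TTCNNNGAA, which reads the same on both strands and can overlap the first. An ISRE core was present in 33 of the 162 higher genes with a window (20.4%), in 0 of 16 lower genes and in 607 of all 15610 tested genes with a window (3.89%). For the GAS core the shares were 21 of 162 (13%), 2 of 16 (12.5%) and 1402 of 15610 (8.98%). Of the antiviral effectors with a window 9 of 14 (64.3%) held an ISRE core, and so did all 4 interferon GTPases with one. It was rarer in other lists, with 2 of 12 chemokines, 2 of 7 class I genes, 1 of 6 class II genes, 1 of 5 immunoproteasome genes, 3 of 15 interferon signalling genes, 2 of 13 cytotoxic and 0 of 9 T cell genes. The GAS core was present in 7 of 15 interferon signalling genes, 4 of 14 antiviral effectors and 2 of 4 interferon GTPases, but in 0 of 12 chemokines, 0 of 7 class I and 0 of 6 class II genes. Such a match is a description of letters and shows no binding. Shown here are 4 promoters that hold a match, of genes whose values stand in the text, for a chemokine, a GTPase, an antiviral effector and a transcription factor, written 5′ to 3′ along the gene, with each match in capitals.

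Cxcl10 promoter, chr5:92348840-92349139, minus strand: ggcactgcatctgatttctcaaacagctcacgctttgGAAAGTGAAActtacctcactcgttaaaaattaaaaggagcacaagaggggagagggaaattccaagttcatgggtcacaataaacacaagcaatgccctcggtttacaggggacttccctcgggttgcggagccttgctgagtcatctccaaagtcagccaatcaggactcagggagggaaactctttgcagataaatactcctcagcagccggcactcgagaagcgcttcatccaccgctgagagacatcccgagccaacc

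Irgm1 promoter, chr11:48871371-48871670, minus strand: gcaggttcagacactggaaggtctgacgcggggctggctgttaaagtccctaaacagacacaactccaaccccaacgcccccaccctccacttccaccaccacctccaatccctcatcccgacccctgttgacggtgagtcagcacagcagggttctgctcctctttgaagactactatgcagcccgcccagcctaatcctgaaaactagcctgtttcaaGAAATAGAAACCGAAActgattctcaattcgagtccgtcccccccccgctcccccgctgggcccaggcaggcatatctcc

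Ifit3 promoter, chr19:34583279-34583578, plus strand: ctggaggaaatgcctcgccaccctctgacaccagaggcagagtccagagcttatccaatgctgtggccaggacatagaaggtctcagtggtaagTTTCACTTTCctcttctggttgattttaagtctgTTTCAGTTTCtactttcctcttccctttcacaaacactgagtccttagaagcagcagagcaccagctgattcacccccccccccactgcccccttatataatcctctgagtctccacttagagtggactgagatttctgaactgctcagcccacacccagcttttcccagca

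Irf1 promoter, chr11:53769764-53770063, plus strand: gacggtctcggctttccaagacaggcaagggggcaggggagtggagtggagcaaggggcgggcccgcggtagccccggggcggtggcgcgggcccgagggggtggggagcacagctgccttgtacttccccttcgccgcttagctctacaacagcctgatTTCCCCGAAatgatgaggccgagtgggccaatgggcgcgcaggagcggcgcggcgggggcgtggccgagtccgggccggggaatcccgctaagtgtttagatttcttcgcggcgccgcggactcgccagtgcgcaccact

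In the Cxcl10 window the ISRE core starts at position −213 from the gene's start. In Irgm1 a pair of overlapping ISRE cores starts at −30 and −24, and Ifit3 holds separate ones at −156 and −122. The Irf1 window holds a GAS core at −90 and no ISRE core by these letters. Irf1 has a second window in the table, which held neither.

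Chemokines draw leukocytes into tissue. Of 18 measured, 8 were higher, 0 lower and 10 did not pass, 13 had PlGF arrays above all PlGF/RGS4 arrays, and the median was 0.89 (0.72 and 1.10). Cxcl9, a ligand of the receptor Cxcr3 on activated T cells, read 4752 and 3136 in PlGF, 314, 173 and 312 in PlGF/RGS4 and 284, 297 and 228 in control. No heart of the other groups exceeded 314 (log2 difference 3.90 ± 0.29, adjusted p = 0.00368). Cxcl10, whose promoter is printed above and which binds the same receptor, read 787 and 367 against 49.9, 51.4 and 54.9 (3.34 ± 0.28, adjusted p = 0.00582). Cxcl11, the third ligand of Cxcr3, was dimmer at 74.3 and 93.3 against 39.5, 43.7 and 47.0 (0.93 ± 0.11), and here PlGF replicate 2 was the higher heart. Ccl5, a chemokine made by T cells and drawing them, read 3377 and 1525 in PlGF, 152, 129 and 154 in PlGF/RGS4 and 146, 148 and 145 in control (3.96 ± 0.28, adjusted p = 0.00297).

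The macrophage chemokine gene Ccl3 read 2765 and 500.0 against 63.6, 118 and 57.6 (3.94 ± 0.66, adjusted p = 0.0448), the widest gap between the 2 PlGF hearts among the chemokines named. Ccl8, which draws monocytes, read 622 and 290.2 against 29.4, 63.0 and 28.1 (3.47 ± 0.41). On the receiving side 2 of 11 chemokine receptors were higher and 0 lower, and 8 (72.7%) had PlGF arrays above all PlGF/RGS4 arrays. Ccr2, the receptor that brings monocytes out of the blood, read 273 and 148 against 29.5, 37.5 and 33.9 (2.55 ± 0.24, adjusted p = 0.00852), and Cxcr6, found on resident T cells, 389 and 152 against 42.6, 41.7 and 45.5 (2.46 ± 0.34). Cxcr3 read 149 and 94.4 against 60.7, 70.0 and 70.4 with separate arrays and did not pass (0.82 ± 0.18, adjusted p = 0.085). Of 17 cytokines and their receptors 11 (64.7%) had PlGF arrays above all PlGF/RGS4 arrays and 1 below. The median was 0.16 (0.11 and 0.24), and 3 were called higher and 0 lower. The 3 were Il2rb, a receptor chain of interleukins 2 and 15 (430.1 and 188 against 40.9, 36.5 and 39.1), Il10ra (515 and 243 against 78.4, 107 and 114) and Tnf (159 and 97.5 against 52.7, 61.1 and 61.1).

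**Figure D2:**
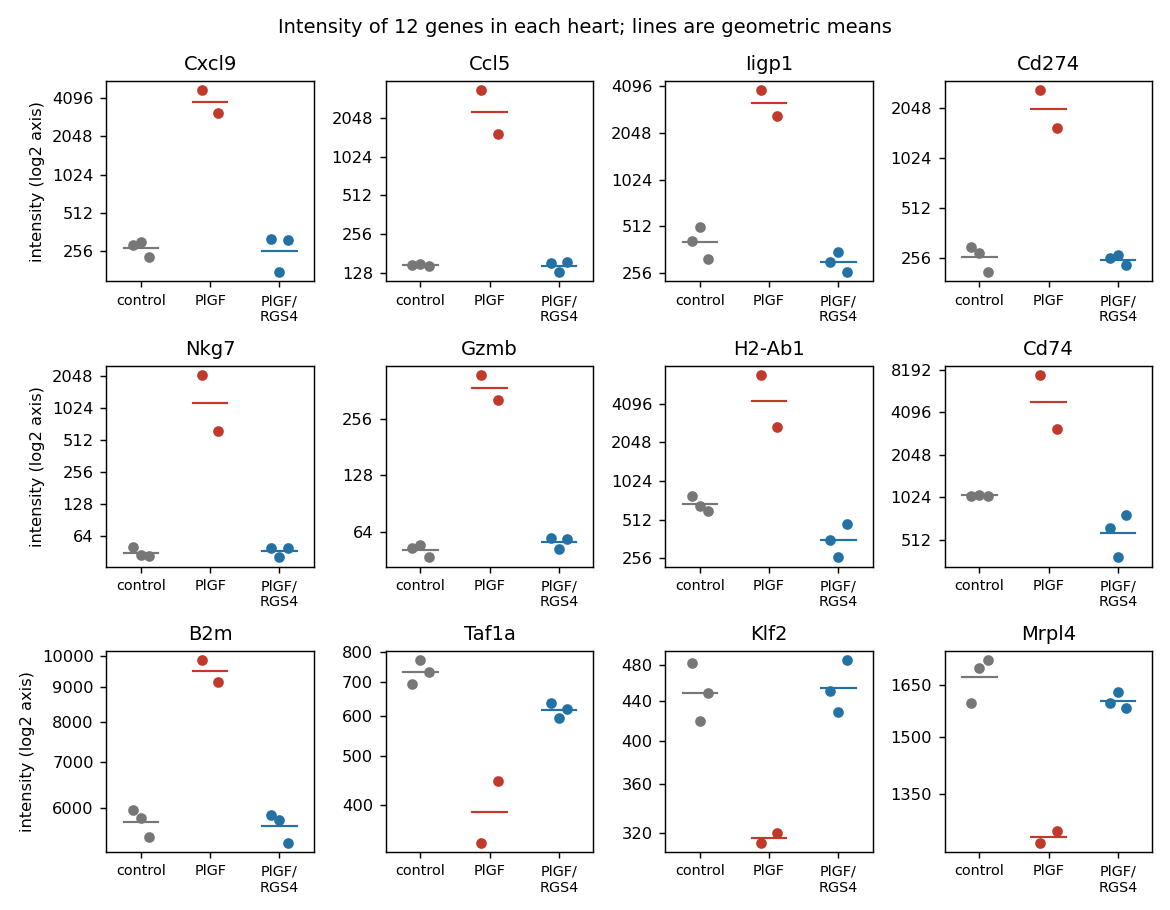
Intensity (log2 axis, a scale of its own in each panel) of 12 genes named in the text in each of the 3 control, 2 PlGF and 3 PlGF/RGS4 hearts; a point is 1 heart and a line the geometric mean of its group. In the first 9 panels both PlGF hearts lie above all others, and in Taf1a, Klf2 and Mrpl4 both lie below all others.

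Markers of T cells and of cytotoxic cells held many of the called genes. In RNA of whole ventricle, more cells of a type and more RNA per cell cannot be told apart. Of 16 T cell genes 9 were higher, 0 lower and 7 did not pass, the arrays of all 16 were separate, and the median was 1.00 (0.66 and 1.19). By heart it was 1.13 above control in PlGF replicate 1 and 0.64 in replicate 2. Their summed intensity was 1953 to 3623 in PlGF, 1088 to 1145 in PlGF/RGS4 and 1137 to 1156 in control. Cd2, an adhesion molecule of T and NK cells, read 112 and 114 in PlGF and 51.7, 53.6 and 55.8 in PlGF/RGS4, with nearly equal PlGF hearts (1.06 ± 0.06, adjusted p = 0.000973). Icos, a costimulatory receptor, read 140.0 and 98.2 against 46.7, 46.6 and 49.4, Lat, an adaptor of the T cell receptor, 181 and 133 against 69.5, 72.9 and 75.0, and Cd4 119 and 106 against 71.2, 72.2 and 77.5. Cd3g and Cd8a, picked out after their values were seen, read 478 and 127 against 25.6, 24.7 and 24.5 and 493 and 167 against 61.1, 60.1 and 59.4.

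Of 15 genes of cytotoxic T and NK cells 9 were higher and 0 lower, again with separate arrays for all 15 and a median of 1.32 (0.92 and 1.43). Nkg7, a protein of cytotoxic granules, read 2059 and 618 in PlGF, 49.8, 40.3 and 49.8 in PlGF/RGS4 and 50.9, 42.2 and 41.4 in control, with a log2 difference of 4.57 ± 0.43 (adjusted p = 0.00852). Gzmb, the gene of granzyme B, which kills target cells, read 439 and 324, then 59.4, 51.6 and 58.5, then 52.3, 54.6 and 46.6 (2.72 ± 0.13, adjusted p = 0.000631). Gzma read 61.8 and 49.5 against 24.6, 18.8 and 21.8 and Ctsw, a protease gene of the same cells, 133 and 111 against 52.3, 55.1 and 54.1 (1.32 ± 0.12 and 1.16 ± 0.10). Ncr1, an activating receptor of NK cells picked out after its values were seen, was higher in PlGF replicate 2, at 50.4 and 70.3 against 24.9, 21.0 and 23.

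The checkpoint ligand gene Cd274, which encodes PD-L1 and is induced by interferon gamma on many cells, read 2640.3 and 1560.4 in PlGF, 253, 265 and 231 in PlGF/RGS4 and 297, 273 and 208 in control (3.02 ± 0.23, adjusted p = 0.00368). It was the only called gene of 10 checkpoint and regulatory T cell genes, although the arrays of 8 were separate and the median was 1.24 (0.72 and 1.78). Its receptor gene Pdcd1 read 179.8 and 70.0 against 34.6, 32.5 and 38.4 (adjusted p = 0.0717), Ido1, which breaks down tryptophan, 200.2 and 86.1 against 43.1, 37.3 and 43.8 (0.0539), and Tigit 453 and 156 against 84.1, 91.0 and 79.4 (0.0969). Foxp3, which defines regulatory T cells and was picked out after its values were seen, read 78.4 and 74.3 against 73.6, 73.8 and 75.4 and its arrays overlapped.

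Of 11 B cell genes 1 was higher, 0 lower and 10 did not pass, with a median of 0.11 (0.20 and 0.05). In 4 (36.4%, against 12.6% of all genes) the PlGF arrays lay above all PlGF/RGS4 arrays. The called gene was Jchain, which joins secreted antibodies and marks plasma cells. It read 311 and 117 in PlGF, 21.4, 21.1 and 20.0 in PlGF/RGS4 and 19.8, 21.2 and 20.7 in control (3.14 ± 0.34, adjusted p = 0.0143). Cd79b, part of the B cell receptor, read 110.1 and 121 against 102, 71.9 and 99.0 and Cd22 66.7 and 62.5 against 49.7, 54.6 and 55.1, neither passing.

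Myeloid markers differed among themselves. Of 19 macrophage genes 1 was higher, 0 lower and 18 did not pass, and the median was 0.55 (0.21 and 0.98). PlGF arrays lay above all PlGF/RGS4 arrays for 10 (52.6%, against 12.6% of all genes) and below for 1. At an unadjusted p under 0.05, 11 were higher and 0 lower. The heart median above control was 0.94 in PlGF replicate 1 and 0.21 in replicate 2, next to −0.10, 0.19 and −0.11 in the hearts labelled PlGF/RGS4. Cd53, a membrane protein of most leukocytes, was the called gene (1257 and 699 against 215, 318 and 262; 1.84 ± 0.25). Lyz2, the gene of lysozyme, read 4542 and 3126 in PlGF, 1788, 2287 and 1619.5 in PlGF/RGS4 and 1988, 2014 and 1903 in control (1.00 ± 0.18, adjusted p = 0.0542). Adgre1, the F4/80 antigen, picked out after its values were seen, read 1172 and 428 against 228, 305 and 229.7 (1.49 ± 0.37, adjusted p = 0.111).

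Of 11 dendritic cell genes 3 were higher and 0 lower, namely Itgae, Flt3 and Itgax. PlGF arrays lay above all PlGF/RGS4 arrays for 9 of the 11 (81.8%, against 12.6% of all genes). Itgae, an integrin of one dendritic subset and of resident T cells, read 81.2 and 73.1 against 46.8, 48.2 and 47.8, Flt3, a growth factor receptor, 75.8 and 70.4 against 45.4, 51.9 and 52.6, and Itgax, the gene of CD11c, 333 and 141 against 51.0, 51.4 and 44.9 (log2 differences 0.68 ± 0.07, 0.54 ± 0.07 and 2.12 ± 0.32). Of 12 neutrophil genes 0 were higher and 0 lower by limma (without adjustment, at a p under 0.05, 1 higher and 1 lower), with a median of −0.22 (−0.17 and −0.24). Here 1 heart labelled PlGF/RGS4 stood apart: replicate 2 had the highest S100a9 (65.9, 95.0 and 65.9 in the 3 hearts, 57.3 and 57.3 in PlGF), S100a8 (37.4, 64.6 and 33.3 against 34.0 and 30.9) and Ly6g (21.0, 34.4 and 18.2 against 19.2 and 18.1). Lcn2, a gene of neutrophils and of stressed tissue picked out after its values were seen, read 226, 4019 and 228 in the hearts labelled PlGF/RGS4, 176 and 372 in PlGF and 237, 298 and 257 in control. The log2 difference of Lcn2 was −1.21 ± 1.16 and 0.17 without that heart.

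Receptors for antibodies and the complement system link these cells to opsonised targets. Fcgr4, an activating receptor of monocytes and macrophages for IgG, read 1185 and 227 in PlGF, 30.0, 40.0 and 33.0 in PlGF/RGS4 and 37.9, 37.0 and 34.3 in control (3.89 ± 0.58, adjusted p = 0.0325). Tyrobp, the adaptor DAP12, read 946 and 520.0 against 259, 309 and 254 (1.36 ± 0.22), and these were the 2 higher genes of 7 Fcγ receptor genes. Of those 7, 6 (85.7%, against 12.6% of all genes) had PlGF arrays above all PlGF/RGS4 arrays. Of 11 complement genes only Cfb, the factor B of the alternative pathway, was higher (499.6 and 259 against 82.7, 100.9 and 83.4; 2.01 ± 0.26, adjusted p = 0.0209). C1qa and C1qb, of the classical pathway, read 1418 and 699 against 391.8, 469.5 and 364 and 4013 and 1896 against 919, 1150.5 and 992 with separate arrays and did not pass (adjusted p = 0.0717 and 0.0591). Altogether 9 of the 11 complement genes (81.8%, against 12.6% of all genes) had PlGF arrays above all PlGF/RGS4 arrays. Dnase1l3, a nuclease secreted by dendritic cells and macrophages, read 474 and 199 against 22.7, 19.3 and 23 and 27.1, 27.2 and 23.1 in control (3.77 ± 0.31, adjusted p = 0.00582).

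Genes that sense foreign or misplaced nucleic acids or carry out inflammatory cell death numbered 20. Among them 3 were higher and 0 lower, while 19 had PlGF arrays above all PlGF/RGS4 arrays, with a median of 1.05 (0.53 and 1.51). Aim2, a sensor of DNA in the cytosol, read 171 and 109 against 59.4, 59.2 and 56.7 (1.21 ± 0.17). Mlkl, which opens the membrane in necroptosis, read 328 and 197 against 112, 122 and 112 (1.13 ± 0.18), and Tnfsf10, the death ligand TRAIL, 923 and 630.0 against 242, 300.2 and 253 (1.53 ± 0.23).

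Antigen presentation held called genes along both of its routes. Class II molecules, which show peptides to CD4 T cells, had 6 of 8 genes higher, 0 lower, separate arrays for all 8 and the highest median of all lists, 2.92 (2.17 and 3.65). H2-Ab1 read 6829.7 and 2694 in PlGF, 358, 259.5 and 469.8 in PlGF/RGS4 and 787, 659 and 603 in control (3.60 ± 0.39, adjusted p = 0.0143). H2-Aa read 6029 and 2542, then 449.7, 297 and 581, then 829.5, 804 and 745, and Cd74, the invariant chain, 7518 and 3108, then 622, 383 and 766, then 1052, 1062 and 1052 (3.20 ± 0.38 and 3.09 ± 0.39). In these genes and in H2-Eb1 (4114 and 1916, then 356, 260.3 and 443, then 653, 609 and 500.5) every heart labelled PlGF/RGS4 lay below every control. The list's median in those 3 hearts was −0.51, −0.81 and −0.33 relative to control, so part of the difference between the transgenic groups lay below the control level. Ciita, the master regulator of class II genes, picked out after its values were seen, read 351 and 132 against 70.8, 74.3 and 78.2, with 73.9, 77.7 and 75.7 in control (1.52 ± 0.34, adjusted p = 0.09).

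The class I list had a smaller median difference than the class II list. Its heavy chain genes H2-K1, H2-D1, H2-Q7 and H2-T23 were not measured, so the median leaves them out. B2m, the light chain of all class I molecules, read 9841 and 9162 in PlGF, 5853, 5763 and 5339.6 in PlGF/RGS4 and 5953, 5795 and 5448 in control. The hearts of the last 2 groups overlapped, and the PlGF hearts lay above both (0.75 ± 0.07, adjusted p = 0.0073). Tap1, of the peptide transporter, read 2157 and 846 against 235, 245 and 183 (2.62 ± 0.36, adjusted p = 0.0263). These were the 2 higher genes of 9, with none lower and a median of 0.90 (0.50 and 1.22). For 7 of the 9 (77.8%, against 12.6% of all genes) the PlGF arrays lay above all PlGF/RGS4 arrays. Erap1, which trims the peptides, read 697 and 451 against 300.3, 306 and 291 (adjusted p = 0.0522).

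The immunoproteasome, whose subunits replace those of the common proteasome under interferon, had 4 of 5 genes higher and a median of 2.00 (1.36 and 2.65). Psmb8 read 1059 and 413 in PlGF, 131, 136 and 133 in PlGF/RGS4 and 154, 128 and 106 in control (2.30 ± 0.35, adjusted p = 0.0339). The other catalytic subunit genes, Psmb9 and Psmb10, read 1989 and 814 against 326, 312 and 314 and 3661 and 1561 against 574, 559.6 and 583 (2.00 ± 0.34 and 2.06 ± 0.32). Psme2, of the activator PA28, read 3481 and 2099 against 1239, 1254 and 1296 (1.10 ± 0.18). Among 25 genes of the constitutive proteasome 0 were higher or lower (1 higher and 0 lower unadjusted), and the median was 0.01 (−0.04 and 0.08), a value over all arrays that turned to −0.03 with each array centred on its median.

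**Figure D3:**
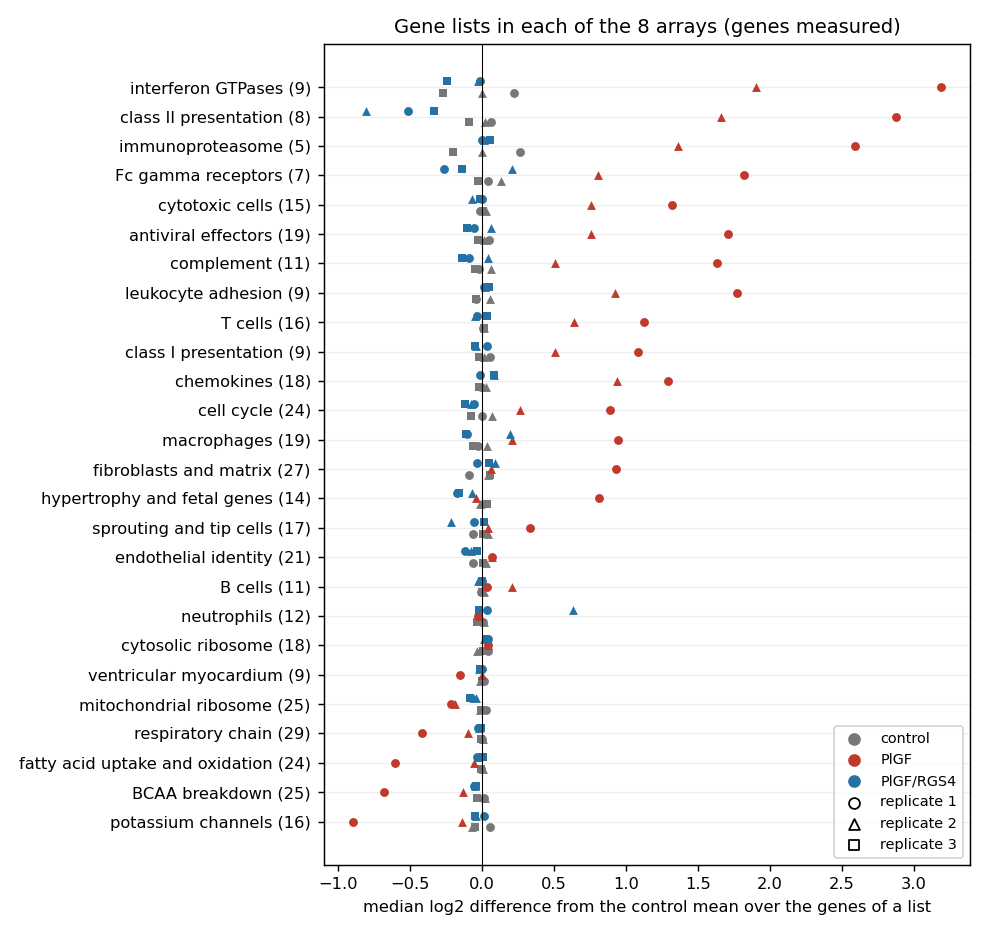
Median log2 difference from the control mean over the genes of 26 lists (number of genes measured in parentheses), for each of the 8 arrays. From the interferon GTPases down to the macrophages both PlGF hearts (red) lie to the right and replicate 1 (circle) lies farther out than replicate 2 (triangle). In B cells replicate 2 lies farther out and in neutrophils both lie near 0, while the hearts labelled PlGF/RGS4 (blue) lie between −0.26 and 0.21 except in class II presentation and, for replicate 2, in the neutrophil list.

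Vessels were examined because PlGF is an angiogenic factor. Of 21 genes of endothelial identity 0 were higher and 0 lower (8 higher and 0 lower unadjusted), and the median was 0.16 (0.13 and 0.16). PlGF arrays lay above those labelled PlGF/RGS4 for 10 (47.6%, against 12.6% of all genes) and below for 2 (9.5%, against 19.9%). Kdr, the main receptor for VEGF-A, read 2206 and 1847 in PlGF, 1365, 1259 and 1458 in PlGF/RGS4 and 1284, 1545 and 1276 in control (0.57 ± 0.12, adjusted p = 0.0717). Cdh5, the cadherin of endothelial junctions, read 3986 and 4127, then 3369, 3482 and 3612, then 3336, 3314 and 3217, with PlGF replicate 2 the higher heart (0.22 ± 0.05, adjusted p = 0.104). Flt1, the receptor of PlGF itself, picked out after its values were seen, read 1365 and 1549 against 1351, 1488 and 1303 and its arrays overlapped.

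Among 17 genes of sprouting vessels and tip cells 0 passed the test (6 higher and 0 lower unadjusted), with a median of 0.31 (0.11 and 0.39). Separate upward were 9 (52.9%, against 12.6% of all genes) and downward 1 (5.9%, against 19.9%). Aplnr, the apelin receptor of sprouting endothelium, was nearly equal in the PlGF hearts at 981 and 996, against 429, 367 and 621 in PlGF/RGS4 and 422, 531 and 429.5 in control (1.10 ± 0.21, adjusted p = 0.0598). Esm1, a tip cell gene, read 129.6 and 71.8 against 58.6, 53.2 and 54.8 (0.79 ± 0.21, adjusted p = 0.134). Of 10 genes of the VEGF family and its receptors, Pgf included, 0 were called (3 higher and 1 lower unadjusted), with a median of 0.15 (0.17 and 0.10). Vegfb read 2281 and 3106 against 3319.5, 3409 and 3349 (−0.34 ± 0.11, adjusted p = 0.186).

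The molecules by which leukocytes and vessel walls hold on to each other, on either cell, held called genes. Of 9, 6 were higher and 0 lower, the arrays of all 9 were separate, and the median was 1.14 (0.87 and 1.75). Vcam1, displayed by activated endothelium, read 738 and 582 in PlGF, 318, 310.0 and 324 in PlGF/RGS4 and 357, 299.8 and 268 in control (1.04 ± 0.14, adjusted p = 0.0226). Icam1 read 514 and 400.1, then 248.7, 254 and 252, then 208, 244 and 246 (0.85 ± 0.12, adjusted p = 0.0263). Among their partners on leukocytes, Itgal, a chain of the ligand of Icam1, read 346 and 172 against 76.7, 67.4 and 78.6, and Selplg, the ligand of selectins, 645 and 342 against 140.5, 189.5 and 142 (1.71 ± 0.25 and 1.59 ± 0.25).

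Of 6 genes of lymphatic endothelium 0 were called (0 higher and 1 lower unadjusted), with a median of −0.33 (−0.20 and −0.39). PlGF arrays lay below all PlGF/RGS4 arrays for 3 (50%, against 19.9% of all genes). Lyve1, which lymphatic vessels share with resident macrophages, read 775 and 784 in PlGF, 1051, 1124 and 825 in PlGF/RGS4 and 1098, 1253 and 1458 in control (−0.35 ± 0.15, adjusted p = 0.265). In 13 genes of pericytes and smooth muscle 0 were called (6 higher and 0 lower unadjusted) and the median was 0.23 (0.07 and 0.39). The pericyte genes Pdgfrb and Cspg4 read 1985 and 1823 against 1453, 1436 and 1621 and 479 and 393 against 343, 334 and 355 (adjusted p = 0.0856 and 0.143).

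Genes of the dividing cell were separate upward in 19 of 24 cases (79.2%, against 12.6% of all genes), and 1 was called. Ccnb2, a mitotic cyclin, read 342 and 197 in PlGF, 112, 104 and 96.4 in PlGF/RGS4 and 126, 154 and 118 in control (1.31 ± 0.22, adjusted p = 0.0449). Mki67, the proliferation marker Ki-67, read 466 and 199.6, then 90.7, 83.5 and 95.8, then 89.6, 127 and 112 (1.75 ± 0.32, adjusted p = 0.0543). Ccna2 and Plk1 read 266 and 123 against 58.5, 42.1 and 65.5 and 178 and 117 against 71.5, 69.5 and 86.6 (adjusted p = 0.0587 and 0.0565). The list's median was 0.66 (0.37 and 1.03), with 0.89 above control in PlGF replicate 1 and 0.27 in replicate 2. Leukocyte markers were higher in the same hearts, with the counts and summed intensities given above for T cells, and which cells carried these transcripts was not tested.

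Fibroblast, matrix and hypertrophy genes lay far from control in 1 of the 2 PlGF hearts. Of 27 fibroblast and matrix genes 0 were called (10 higher and 0 lower unadjusted), and the median relative to control was 0.93 in PlGF replicate 1 but 0.07 in replicate 2. Separate upward were 10 (37%, against 12.6% of all genes) and downward 0 (against 19.9%). Sparc, a matrix glycoprotein, read 7447 and 5796 in PlGF, 4536, 4551 and 4667 in PlGF/RGS4 and 3802, 4667 and 4374 in control, so both PlGF hearts were above the rest (0.52 ± 0.12, adjusted p = 0.0966). Col8a1, a short-chain collagen, read 1727 and 578 against 456, 419 and 446 (1.18 ± 0.39, adjusted p = 0.179). Postn, the gene of periostin from activated fibroblasts, picked out after its values were seen, read 4050.1 and 768 against 690.0, 629.5 and 579 and 751, 774 and 732 in control, so only PlGF replicate 1 lay above the controls.

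Of 14 hypertrophy and fetal genes 0 were called (2 higher and 0 lower unadjusted), with medians of 0.82 and −0.04 in the 2 PlGF hearts. Nppb, the gene of the natriuretic peptide BNP, read 7711 and 2227 in PlGF, 994, 1049 and 1506 in PlGF/RGS4 and 2569, 1684 and 1516 in control. PlGF replicate 2 lay within the controls, and the hearts labelled PlGF/RGS4 lay below them all (1.83 ± 0.49, adjusted p = 0.131). Acta1, the skeletal actin of the fetal program, read 5679 and 2149 against 962, 2866 and 1482 and its arrays overlapped (1.13 ± 0.50, adjusted p = 0.27). Rcan1, a gauge of calcineurin activity, read 2618 and 881 against 819, 828 and 833 (0.88 ± 0.40, adjusted p = 0.276).

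Of 19 sarcomere genes 0 were called (0 higher and 1 lower unadjusted) and the median was −0.05 (0.01 and −0.12). Of 17 calcium handling genes 0 were called (0 higher and 3 lower unadjusted), with a median of −0.10 (−0.04 and −0.21). Cacna1c, the L-type calcium channel, read 1433 and 2339.6 against 2670.1, 2766 and 2606, and Ryr2, the release channel, 3573 and 6479 against 6794, 7289 and 6632 (−0.55 ± 0.18 and −0.52 ± 0.21, adjusted p = 0.171 and 0.242). Among potassium channels the PlGF hearts were again unequal. Of 16 genes 0 were called (0 higher and 8 lower unadjusted) and 9 were separate downward (56.25%, against 19.9% of all genes). The median from control was −0.90 in replicate 1 and −0.14 in replicate 2. Kcna5, of the ultrarapid delayed rectifier, read 144 and 127 in PlGF and 268, 202 and 202 in PlGF/RGS4, with the lower value in replicate 2 (−0.71 ± 0.19, adjusted p = 0.134). Kcnip2, picked out after its values were seen, read 166 and 608, then 915, 529 and 837, then 1881, 2165 and 1889.6; the transgenic groups overlapped, and all 5 of their hearts lay below the controls. In the intercalated disc, 8 of 15 genes were separate downward (53.3%, against 19.9% of all genes) and 0 were called (0 higher and 6 lower unadjusted). Lrrc10, a cardiac protein near the Z-disc, read 1309 and 1812 against 2687, 2434 and 2454, with 3312, 2908 and 3726 in control, above all 5 transgenic hearts (−0.71 ± 0.15, adjusted p = 0.081).

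Many metabolic genes had PlGF arrays below all PlGF/RGS4 arrays, by small amounts and without passing the test. For the breakdown of branched chain amino acids 20 of 25 genes were separate in this way (80%, against 19.9% of all genes), for the respiratory chain 20 of 29 and for fatty acid uptake and oxidation 14 of 24, and 0 were called in each. At an unadjusted p under 0.05 the counts were 0 higher and 16 lower, 0 higher and 15 lower, and 0 higher and 12 lower. The medians were −0.37 (−0.10 and −0.62), −0.23 (−0.06 and −0.37) and −0.32 (−0.06 and −0.59). Relative to control they were −0.68, −0.42 and −0.60 in PlGF replicate 1 and −0.13, −0.10 and −0.06 in replicate 2. Bckdha, of the enzyme complex at the irreversible step of that breakdown, read 733 and 1141 in PlGF and 1284, 1390.5 and 1429.9 in PlGF/RGS4 (−0.58 ± 0.16, adjusted p = 0.143). Ndufb8, of respiratory complex I, read 2399 and 2746 against 3113, 3119 and 3087 (−0.28 ± 0.06, adjusted p = 0.096). Mlycd, which removes the malonyl-CoA that blocks fatty acid entry into mitochondria, read 353 and 534 against 580.5, 637 and 597 (−0.48 ± 0.15, adjusted p = 0.174).

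Around these pathways 9 of 21 genes of pyruvate and citrate metabolism were separate downward (42.9%, against 19.9% of all genes). So were 7 of 15 mitochondrial carriers (46.7%) and 9 of 16 metabolic regulators (56.25%). Their medians were −0.21 (−0.03 and −0.34), −0.23 (−0.09 and −0.28) and −0.21 (−0.11 and −0.34). In each 0 were called (0 higher and 8 lower, 0 higher and 6 lower, and 0 higher and 5 lower unadjusted). Citrate synthase (Cs) read 7288 and 8153 against 8835, 9071 and 8807 (−0.21 ± 0.06, adjusted p = 0.159). Esrrg, a nuclear receptor that drives oxidative genes, read 454 and 509 against 588, 577 and 574 (−0.27 ± 0.06, adjusted p = 0.0988), and Klf15, a regulator of amino acid and lipid use, 253 and 496 against 678, 579 and 553 (−0.76 ± 0.25, adjusted p = 0.177). Of 20 glycolysis genes 0 were called (2 higher and 6 lower unadjusted), with a median of −0.05 (−0.05 and −0.05). Separate upward were 3 (15%, near the 12.6% of all genes) and downward 8 (40%, against 19.9%). There Pfkfb3, which speeds up glycolysis, read 482 and 296 against 194, 142 and 179, and its cardiac relative Pfkfb2 read 803 and 1163 against 1397, 1389.9 and 1581 (1.15 ± 0.24 and −0.59 ± 0.16).

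In the mitochondrial ribosome both PlGF hearts lay about equally low. Its 25 genes had a median from control of −0.21 in PlGF replicate 1 and −0.19 in replicate 2. Separate downward were 14 (56%, against 19.9% of all genes). Mrpl4, of its large subunit, was called lower, at 1233 and 1259.8 in PlGF, 1596, 1630.0 and 1584 in PlGF/RGS4 and 1596, 1704 and 1728 in control (−0.36 ± 0.05, adjusted p = 0.0305). Mrps35 read 426 and 588 against 709, 742 and 708 (−0.52 ± 0.12, adjusted p = 0.103). The cytosolic ribosome had 0 of 18 called (0 higher and 0 lower unadjusted) and a median of 0.03 (0.03 and 0.01), a value over all arrays that turned to −0.02 with each array centred on its median.

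Of 18 genes of RGS proteins and G proteins 1 was called (6 higher and 1 lower unadjusted), and 11 (61.1%, against 12.6% of all genes) had PlGF arrays above all PlGF/RGS4 arrays and 2 below. The called gene was Rgs3, a relative of RGS4, at 282 and 274 in PlGF, 204, 214 and 217 in PlGF/RGS4 and 224, 230.4 and 233 in control (0.39 ± 0.05, adjusted p = 0.0227). The PlGF hearts were alike there. Pik3cg, the catalytic subunit of PI3Kγ, which the βγ subunits of G proteins activate, read 244 and 159.5 against 68.5, 99.0 and 84.2 (1.24 ± 0.22, adjusted p = 0.051), and its regulatory partner Pik3r5 155 and 114 against 89.3, 92.4 and 88.3 (adjusted p = 0.0822). PI3Kγ is abundant in leukocytes, whose markers were higher in the same hearts, and their part in these values was not tested. In the adrenergic and cAMP list 6 of 16 genes were separate downward (37.5%, against 19.9% of all genes) and 0 called (0 higher and 6 lower unadjusted). There Pde4d, a phosphodiesterase of cAMP, read 520.3 and 746 against 859, 799.5 and 831 (−0.41 ± 0.13, adjusted p = 0.176).

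Among FoxO and atrophy genes 9 of 19 were separate downward (47.4%, against 19.9% of all genes) and 0 called (0 higher and 6 lower unadjusted). Ddit4, which inhibits mTORC1 under stress, was low in both PlGF hearts at 221 and 273, against 708, 442 and 529.5 in PlGF/RGS4 and 814, 586 and 959.6 in control (−1.16 ± 0.25, adjusted p = 0.0852). Fbxo32, the muscle ubiquitin ligase atrogin-1, read 710.3 and 1033 against 1355, 1184 and 1184 (−0.53 ± 0.16, adjusted p = 0.154). Of 16 clock genes 0 were called (0 higher and 3 lower unadjusted). Per1 read 510.3 and 463 against 920.0, 516 and 847 and Per2 269.7 and 326 against 538, 337 and 430.2, and in both the second heart labelled PlGF/RGS4 lay close to the PlGF hearts. Dusp1, an early phosphatase that ends MAP kinase signals, read 1747 and 1540.0 in PlGF and 2767, 2139.9 and 3028 in PlGF/RGS4 (−0.67 ± 0.15, adjusted p = 0.0891). It was 1 of 22 immediate early genes, of which Klf2 alone was called.

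The study picked 9 genes as candidates of the microRNA miR-182 from these same arrays, so their direction is no independent evidence. By its criteria they were lower than control in PlGF and not in PlGF/RGS4, and were miR-182 targets in a database. For Bcat2, Foxo3 and Adcy6 the study also reported lower transcripts in PlGF mice than in controls by qPCR. Its anti-miR-182 treatment brought Bcat2 and Foxo3 back fully and Adcy6 in part. A miR-182 mimic lowered these transcripts in cultured MEFs. The mimic also reduced a wild type, but not a mutant, reporter of the Bcat2 untranslated region. In NO-treated rat cardiomyocytes Bcat2 fell, and anti-miR-182 restored it. Those measurements lie outside the arrays and were not tested here. None of the 9 was called (0 higher and 8 lower unadjusted; the lowest adjusted p was 0.164), and 7 had PlGF arrays below all PlGF/RGS4 arrays. Bcat2, the mitochondrial transaminase of branched chain amino acids, read 1112 and 1495 in PlGF and 1534, 1851 and 1618 in PlGF/RGS4, where replicate 1 lay close to PlGF replicate 2 (−0.37 ± 0.13, adjusted p = 0.196; −0.15 without PlGF replicate 1). Adcy6, a cardiac adenylyl cyclase, read 1145 and 1571 against 1708, 1702 and 1689.9 (−0.34 ± 0.12; −0.11). Foxo3, a factor of atrophy and autophagy, read 511 and 720.3 against 734, 679 and 706 (−0.22 ± 0.13), and without PlGF replicate 1 the sign turned to 0.03, since PlGF replicate 2 lay within the range of the hearts labelled PlGF/RGS4.

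The kinase gene Pink1 read 1559 and 3070.3 against 3387, 3078 and 3408 and the coenzyme A carrier gene Slc25a42 321 and 643 against 703, 716 and 744 (−0.59 ± 0.24 and −0.66 ± 0.24). Mccc1, of leucine breakdown, read 790.1 and 1327 against 1401, 1404 and 1412, Agtpbp1, a deglutamylase, 1700.1 and 2535 against 2896, 2810.5 and 2811, Pcx, pyruvate carboxylase, 252 and 326 against 377, 466 and 351, and Akap7, an anchor of protein kinase A, 405 and 651 against 694, 647 and 706. In all 9 PlGF replicate 1 was the lower PlGF heart. Over all genes it was the PlGF heart farther from PlGF/RGS4 in 14398 of 19933. The median of the 9 from control was −0.85 in PlGF replicate 1, −0.16 in PlGF replicate 2 and −0.08, −0.07 and −0.05 in the hearts labelled PlGF/RGS4.

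**Figure D4:**
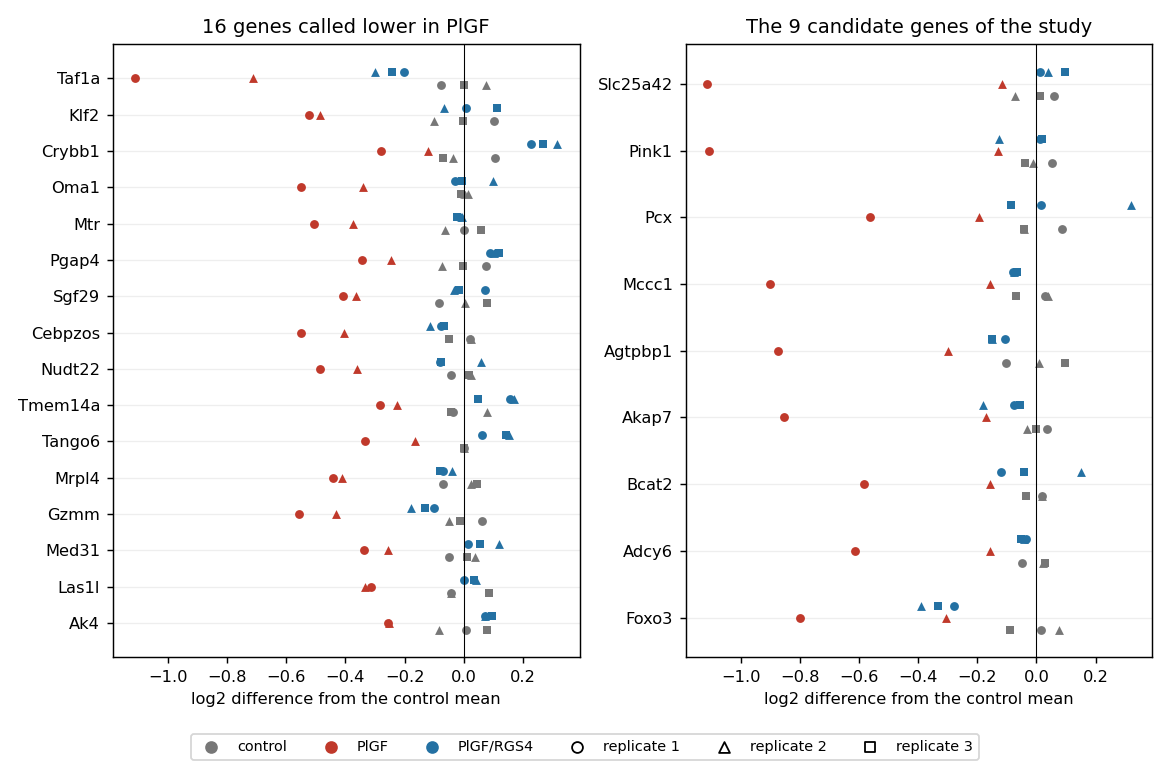
Log2 difference from the control mean in each of the 8 hearts, for 16 genes called lower in PlGF than in PlGF/RGS4 (left; the other called gene is a predicted one) and for the 9 candidate genes of the study (right). On the left both PlGF hearts lie to the left of all hearts labelled PlGF/RGS4 and near each other, while on the right PlGF replicate 1 lies far to the left and replicate 2 near the other groups.

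The 17 genes called lower differed by 0.33 to 0.67 (log2). In all 17 both PlGF hearts also lay below every control, a share that was not counted over all genes. Klf2, a transcription factor that laminar flow induces in endothelium and that keeps T cells quiescent, read 313 and 320.2 in PlGF, 451, 429 and 486 in PlGF/RGS4 and 482, 419 and 449 in control (−0.52 ± 0.08, adjusted p = 0.0325). Taf1a, of the factor that recruits RNA polymerase I to ribosomal DNA, read 337 and 446, then 635, 593 and 618, then 693, 771 and 731 (−0.67 ± 0.11, adjusted p = 0.0454). Oma1, a protease of the mitochondrial inner membrane, read 399.8 and 462 against 574, 627 and 584, and Mtr, methionine synthase, 374 and 410.1 against 527, 529.7 and 524 (−0.47 ± 0.07 and −0.43 ± 0.06, adjusted p = 0.0376 and 0.0273). Ak4, an adenylate kinase of the mitochondrial matrix, read 1140.2 and 1144 against 1432, 1432 and 1455 (−0.33 ± 0.06, adjusted p = 0.0475).

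Crybb1 read 176 and 197 in PlGF, 251, 267 and 258 in PlGF/RGS4 and 231, 209 and 204 in control, so the hearts labelled PlGF/RGS4 were above the controls. Pgap4 read 239 and 256 against 323, 326 and 329.7, Sgf29, a reader of histone methylation, 279 and 288 against 389.9, 362 and 366, and Cebpzos 574 and 634 against 799, 778 and 803. Nudt22 read 365 and 398 against 484, 532 and 485 and Tmem14a 93.9 and 97.7 against 128, 129 and 118. Tango6, Gzmm, Med31 and Las1l, named because the group is small and after their values were seen, had log2 differences of −0.37, −0.36, −0.36 and −0.35. Gzmm, the gene of granzyme M, went against the other granzymes named, at 110.0 and 120.2 in PlGF and 152, 144 and 148 in PlGF/RGS4. Of the 17 genes none passed with every array left out in turn, and 1 was among the 11 genes called lower without PlGF replicate 1.

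Of the other tissues a ventricular sample can hold, no list had a called gene: atrial myocardium (0 of 10, 0 higher and 4 lower unadjusted), epicardium (0 of 8, 0 higher and 0 lower), adipocytes (0 of 8, 0 higher and 1 lower), skeletal muscle (0 of 10, 0 higher and 0 lower), Schwann cells (0 of 5, 0 higher and 2 lower) and blood cells (0 of 5, 0 higher and 1 lower), with medians from −0.39 to −0.09. In the atrial list 5 of 10 genes (50%, against 19.9% of all genes) had PlGF arrays below all PlGF/RGS4 arrays, and its summed intensity was 4808 to 6782 in PlGF, 5620 to 6285 in PlGF/RGS4 and 6744 to 7509 in control. Among the signalling and stress lists, heat shock genes (0 of 14, 0 higher and 0 lower unadjusted), angiotensin and endothelin genes (0 of 9, 1 higher and 1 lower), mitophagy genes (0 of 12, 0 higher and 5 lower), ATF4 and amino acid genes (0 of 20, 2 higher and 1 lower), natriuretic and cGMP genes (0 of 17, 2 higher and 1 lower) and FGF and prostanoid genes (0 of 16, 4 higher and 4 lower) held none either, with medians from −0.17 to 0.07. Of the 237 called genes 82 belonged to any of the lists and 155 to none.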

How the data were processed

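Total RNA of 8 left ventricles was hybridised to Affymetrix Mouse Gene 1.0 ST arrays, 1 array per heart. Per the study's methods, the authors used MAS 5.0 with global scaling to obtain the intensity values that were deposited, and MAS5 is the only tool in the submitters' processing notes. The intensities are linear (7.1 to 21704), with array medians of 111.1 to 115.2, and the sorted log2 values of the arrays differed by an SD of at most 0.0463, so the distributions were nearly equal. The number of arrays limits the precision. Replicates are separate hearts per the labels. Of 28440 probe sets, 23398 were named through the platform annotation, 21780 with 1 symbol, 1618 with several (not used) and 5042 with none. The brightest probe set of each symbol was kept, giving 19933 genes. On log2(intensity + 1), limma 3.58.1 in R 4.3.3 (lmFit, eBayes) was fitted to all 8 arrays with 3 group means, and the two-sided contrast PlGF minus PlGF/RGS4 was adjusted by Benjamini-Hochberg at 0.05. The script was tested on simulated data. Gene lists are described by counts and medians without a test. Members and lists (64, with 888 of 969 symbols measured) were chosen with earlier results of these data known. Named were Pgf, Rgs4, the 9 candidate genes of the study, the 10 largest called differences each way and up to 4 members of each list by p; others are said to be picked after their values were seen. Alternatives covered normalization, filters, probe sets, prior, weights, arrays in the fit, the methods' t-test and one-way ANOVA, the replicate number, Xist, the pseudocount and each array left out. Promoter sequences are RefSeq's, build GRCm38.p6.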

Additional observations from a re-analysis of the deposited data

How the results depend on the processing

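The 220 higher and 17 lower genes rest on few arrays. The counts stayed within 1.5 times with all probe sets, their mean, a trended robust prior or Xist as a covariate. The genes were not all the same: with Xist as a covariate 204 of the 220 and 8 of the 17 were called again. The other counts were as follows, higher then lower. Quantile normalization gave 250 and 29, median centring 257 and 39, genes above the median level alone 99 and 11, array weights 158 and 0, and a pseudocount of 16 gave 125 and 13. The 5 arrays of the 2 groups alone gave 1 and 0, the spread of a one-way ANOVA 4 and 1, and the methods' t-test 0 and 5 after Benjamini-Hochberg (718 and 908 at an unadjusted p under 0.05), none of the 5 among the 17. With 1 array left out the counts ran from 11 to 2594 higher and from 0 to 2997 lower, both highest without PlGF replicate 2, when replicate 1 alone stands for PlGF and is assumed to vary like the other groups. Without PlGF replicate 1 they were 262 and 11. Without a control they were 23 to 26 and 0, and without a PlGF/RGS4 array 11 to 24 and 0 or 1 (1314 to 1791 lower at an unadjusted p under 0.05 in these 6 settings). The causes of these shifts were not tested, beyond the fewer arrays or genes left. Unadjusted lower counts beside a 0 were 1005 with array weights and 1305 with the 5 arrays alone.

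With the replicate number as a block (replicate block), 26 genes were higher and 0 lower by limma (1550 and 1582 at an unadjusted p under 0.05). Arrays with the same number deviated together with correlations from −0.217 to 0.296 over genes, so the numbers were not taken to pair hearts.

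Over 241 named genes and all settings, 3999 of 4999 values kept their direction and their side of the threshold, 814 no longer passed, 178 newly passed and 8 turned sign, all in genes that did not pass. These were Foxp3 with median centring (−0.0059), Rgs4 in the replicate block (0.0491), and values with 1 array left out. Flt1 ran from −0.0138 (without PlGF replicate 2) to 0.1685, Foxo3 from −0.4661 to 0.0289, Lcn2 from −1.9011 to 0.1725 and Rgs4 from −0.1446 to 0.1240.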

Other observations

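Genes of antibody-producing cells outside the main comparison of B cell markers were looked at after their values were seen. Igha, the constant region of IgA, read 174 and 336 in PlGF, 42.9, 35.8 and 38.7 in PlGF/RGS4 and 35.9, 32.7 and 34.2 in control, and here PlGF replicate 2 was the higher heart, in contrast to 210 of the 220 higher genes (log2 difference 2.60 ± 0.24, limma adjusted p = 0.00842). Igkv9-120, a variable segment of the kappa light chain, read 235 and 169 in PlGF, 24.5, 22.3 and 30.1 in PlGF/RGS4 and 24.9, 30.1 and 28.2 in control (2.92 ± 0.17, adjusted p = 0.00114). Variable segments are alike in sequence, so the probe set may read several of them.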
